A study of Homo sapiens with 26 samples.

Results

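Large and small tetraploid clones of HCT116 were compared gene by gene. HCT116 is an established human colorectal cancer cell line with a near-diploid chromosome set, and the comparison rests on 6 of the 26 libraries of the series, 3 large 4N clones and 3 small 4N clones. To double the genome, the study had exposed the cells to 75 µM blebbistatin, an inhibitor of non-muscle myosin II that blocks cytokinesis, for 20 hr, washed the drug out and let the cells recover for 48 hr. Single cells were then expanded into clones by limiting dilution, and 4N clones were classed as large or small by cell and nuclear size. Every 4N library is 1 such clone, and all 6 carry the same doubling treatment. The untreated reference was 3 HCT116 2N libraries, the parental culture and 2N clones 1 and 2. Of the 58735 genes in the table, 12697 reached an FPKM (fragments per kilobase of gene length, scaled to the library's depth) of 1 or more in at least 3 of the 9 HCT116 libraries and were tested. The comparison asks what differs in expression between clones that share a ploidy but not a size.

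A cell that fails cytokinesis keeps both sets of chromosomes, and its cell and nuclear volume usually grow with its DNA. Size is also set by growth control. MYC and mTOR signalling drive the making of ribosomes, nucleotides and proteins, while the plasma membrane and the actin cortex have to cover the added volume. Caveolae are small membrane pits that flatten under stretch, and the transcriptional coactivators YAP and TAZ switch on their targets in cells that are spread or under tension. Growth factor signals through EGFR and the MAPK cascade switch on the immediate early genes, such as FOS, JUN and EGR1, within minutes.

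Reads assigned to genes numbered 32.5 M to 37.8 M in the 9 HCT116 libraries, and mitochondrial genes took 7.35% to 10.1% of them. Large clone 3 stood apart from the other clones. Across the tested genes, the SD of its log2 difference from the 2N mean was 0.598, against 0.357 to 0.471 in the other 5 clones, and 11673 genes reached 1 FPKM in it, against 11966 to 12330 in the other 8 libraries. Of 13 markers of colon epithelium, 8 were tested, and EPCAM, KRT8, KRT18 and KRT19 were abundant. CDX1, LGALS4, CDH17, GPA33 and VIL1, which mark differentiated colonocytes, stayed under 1 FPKM in all 9 libraries, and CDX1 was at 0. The summed level of the epithelial list was 1812 to 2659 FPKM in large clones, 1288 to 1856 in small clones and 1184 to 1212 in 2N libraries. No marker of blood, endothelial, or goblet and endocrine cells reached 1 FPKM, and of 8 fibroblast markers only COL1A1 was tested. Fewer cells with a transcript and less of it per cell cannot be told apart in such bulk libraries.

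Of the 12697 genes, 11 differed between large and small clones (limma, Benjamini-Hochberg adjusted p under 0.05), and all 11 were higher in the large clones, which is 0.0866% of the genes tested. None was lower. With all 26 libraries in 1 fit, 278 genes passed (165 higher and 113 lower, 2.19%), 10 of the 11 among them. At an unadjusted p under 0.05 there were 1061 genes higher (8.36%) and 975 lower (7.68%). The median log2 difference over all genes was -0.0047. The 11 genes were the keratin-associated protein genes KRTAP3-1, KRTAP2-3 and KRTAP2-4, the glycosyltransferase gene GALNT5, the cytokine gene IL18, the carboxypeptidase gene CPA4, and SERINC2, PIP4K2A, GREB1L, C1orf116 and the pseudogene SBDSP1. In FPKM, the means of large and small clones differed from 1.93-fold for SBDSP1 to 14.5-fold for KRTAP3-1. In each of the 11, all 3 large clones also stood above all 3 2N libraries. The small clones overlapped the 2N libraries in 7 of them, stood above in GALNT5 and SERINC2, and stood below in IL18 and SBDSP1.

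**Figure D1:**
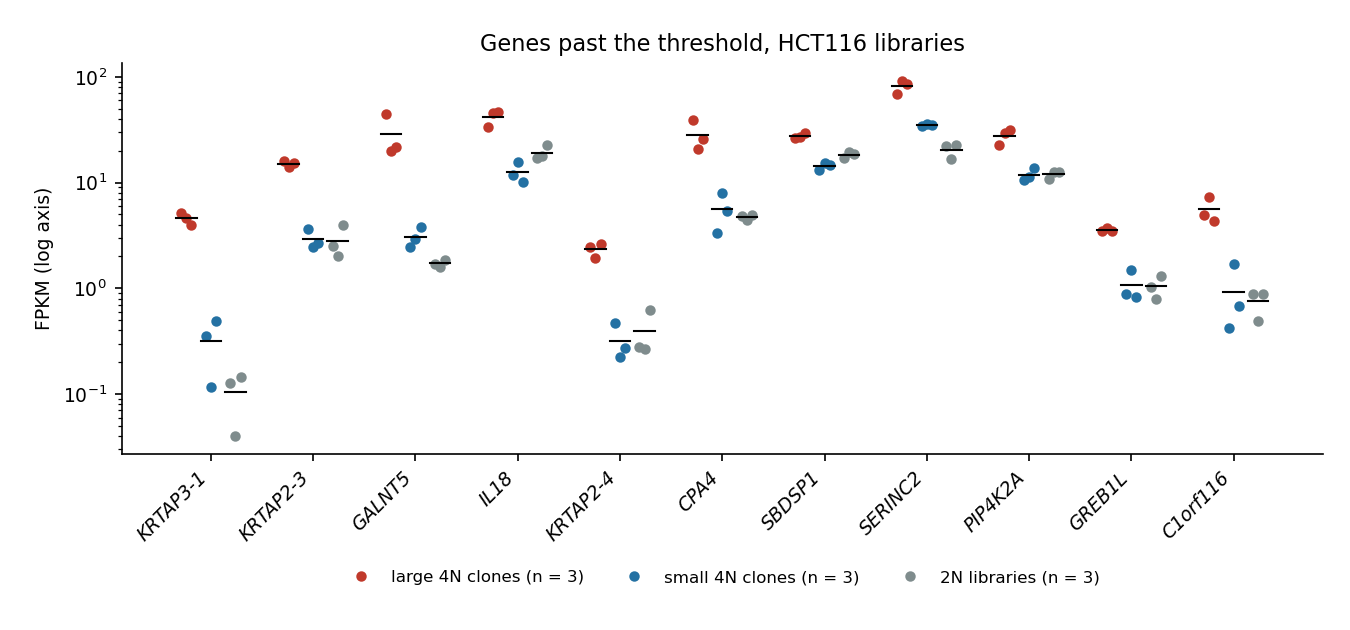
FPKM on a log axis of the 11 genes past the threshold in each of the 9 HCT116 libraries. Each point is 1 library, bars mark group means, and the 3 large 4N clones lie above the 3 small 4N clones and the 3 2N libraries for every gene.

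The 3 keratin-associated protein genes lie within 1 cluster on chromosome 17. Such proteins fill the space between keratin filaments in hair, and their transcripts are scarce in most other cells. Of 112 genes of the family, 77 were at 0 in every HCT116 library, 5 exceeded 1 FPKM in any of them, and 3 were tested. KRTAP3-1 (ENSG00000212901, chromosome 17, 41008521 to 41019324, GRCh38) was 5.20, 4.63 and 3.99 FPKM in large clones 1, 2 and 3 and 0.350, 0.117 and 0.487 in small clones 1, 2 and 3, with 0.0403 to 0.146 in the 2N libraries. These levels rest on 135, 114 and 96 reads in the large clones and 10, 3 and 12 in the small clones, and the groups did not overlap. On the log2(FPKM + 1) scale, which understates the change of low genes, KRTAP3-1 rose by 2.09 ± 0.15 (SE, limma adjusted p = 0.00137). This SE compares 3 large and 3 small clones with a variance pooled over the 9 HCT116 libraries, as do those below.

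KRTAP2-3 (ENSG00000212724, chromosome 17, 41059240 to 41060114) was at 16.1, 14.0 and 15.3 FPKM in the large clones and 3.60, 2.46 and 2.69 in the small clones, a rise of 2.05 ± 0.19 (limma adjusted p = 0.00525). For KRTAP2-4 (ENSG00000213417, chromosome 17, 41065116 to 41065879), 5002 bases away, the large clones had 2.48, 1.93 and 2.64 FPKM and the small clones 0.466, 0.223 and 0.270 (log2 difference 1.34 ± 0.16, limma adjusted p = 0.0226), from 50 to 68 reads against 6 to 14. In both genes every large clone lay above every small clone and every 2N library. KRTAP3-1 and KRTAP2-3 were the 2 genes that passed in all 6 fits with 1 clone left out. KRTAP3-1 and KRTAP2-4 entered the test through the large clones alone, since no small clone or 2N library reached 1 FPKM. The filter thus partly fixed the direction of these 2 genes, while KRTAP2-3 exceeded 1 FPKM in every HCT116 library. The members of the KRTAP2 group resemble each other: of 665 windows of 100 bases in KRTAP2-4 transcripts, 264 (39.7%) also occur in KRTAP2-3, so reads could be split between them and the value of each is uncertain. KRTAP3-1 shares none of its 624 windows with KRTAP2-3. Next to them, KRTAP2-2 and the pseudogene KRTAP2-5P were too low to be tested. KRTAP2-2 had 0.647, 1.08 and 1.19 FPKM in the large clones and 0.208, 0.193 and 0 in the small clones, and KRTAP2-5P had 0.634, 0.669 and 1.90 against 0.192, 0.286 and 0. Both were highest in large clones. The tested keratin genes nearby overlapped between the classes: the log2 difference was 0.20 for KRT10 (limma adjusted p = 0.583), 0.18 for KRT20 (0.824) and -0.18 for KRT23 (0.925).

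The promoters of the 3 genes are printed because they rose together from 1 cluster, and those of CPA4 and C1orf116, described next, because they hold both motifs searched. Each runs from 250 bases before to 30 after the RefSeq start (GRCh38.p14), 5′ to 3′. Capitals mark TGANTCA, the AP-1 element, and CATTCC, the TEAD element through which YAP and TAZ act (GGAATG on the other strand), both searched on both strands.
KRTAP3-1, chr17:41009099-41009378, minus strand: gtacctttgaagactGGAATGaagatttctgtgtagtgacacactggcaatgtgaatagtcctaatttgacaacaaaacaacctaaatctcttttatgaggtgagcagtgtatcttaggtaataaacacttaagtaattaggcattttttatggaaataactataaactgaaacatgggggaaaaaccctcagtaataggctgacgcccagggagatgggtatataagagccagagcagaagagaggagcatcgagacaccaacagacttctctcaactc
KRTAP2-3, chr17:41060085-41060364, minus strand: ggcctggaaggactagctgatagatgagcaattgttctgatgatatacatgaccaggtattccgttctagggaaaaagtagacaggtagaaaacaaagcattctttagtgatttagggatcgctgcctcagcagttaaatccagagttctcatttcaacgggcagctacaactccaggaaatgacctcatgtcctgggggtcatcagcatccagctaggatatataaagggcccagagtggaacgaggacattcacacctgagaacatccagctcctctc
KRTAP2-4, chr17:41065850-41066129, minus strand: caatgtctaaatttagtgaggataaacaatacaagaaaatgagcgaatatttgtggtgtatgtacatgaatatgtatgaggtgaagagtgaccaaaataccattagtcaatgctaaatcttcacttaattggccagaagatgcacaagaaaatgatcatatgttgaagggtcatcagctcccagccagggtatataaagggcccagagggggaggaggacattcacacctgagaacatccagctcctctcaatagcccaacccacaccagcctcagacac
CPA4, chr7:130292911-130293190, plus strand: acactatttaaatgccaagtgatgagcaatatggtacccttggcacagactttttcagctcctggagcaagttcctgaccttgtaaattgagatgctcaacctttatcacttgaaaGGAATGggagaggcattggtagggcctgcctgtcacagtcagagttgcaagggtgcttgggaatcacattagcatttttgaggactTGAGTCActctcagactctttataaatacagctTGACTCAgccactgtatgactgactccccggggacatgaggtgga
C1orf116, chr1:207032727-207033006, minus strand: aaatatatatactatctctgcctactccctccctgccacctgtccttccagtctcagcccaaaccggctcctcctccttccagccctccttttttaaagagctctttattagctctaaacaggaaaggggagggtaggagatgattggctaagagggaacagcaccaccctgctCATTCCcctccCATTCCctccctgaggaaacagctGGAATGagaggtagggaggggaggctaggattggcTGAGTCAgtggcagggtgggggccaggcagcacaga
Of the 11 genes, 8 had a promoter in the RefSeq table. TGANTCA occurred in 2 of the 8, CPA4 and C1orf116, and in 352 of 8914 promoters of tested genes (3.9%). CATTCC occurred in 3 of the 8, CPA4, C1orf116 and KRTAP3-1, and in 901 of the 8914 (10.1%). The KRTAP2-3 and KRTAP2-4 windows held neither. When these 2 promoters were aligned, 169 of 280 bases (60.4%) were identical. The KRTAP3-1 window surrounds the RefSeq start and lies inside the counted gene, whose annotated 5′ end on the minus strand is at 41019324. A match describes letters in a window, not a bound site.

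GALNT5 encodes an enzyme that starts O-linked sugar chains on secreted and membrane proteins. It stood at 44.2, 19.9 and 21.7 FPKM in large clones 1, 2 and 3, at 2.48, 2.93 and 3.77 in the small clones and at 1.6 to 1.87 in the 2N libraries. Large clone 1 was the highest, the groups did not overlap, and the log2 difference was 2.79 ± 0.26 (limma adjusted p = 0.00525). The call was lost without small clone 1 (adjusted p = 0.0584). Of 15 tested O-glycosylation genes GALNT5 alone passed, 7 were higher and 8 lower, and the median difference was -0.0067 (0.014 without large clone 3).

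IL18 encodes a cytokine that epithelial cells store as an inactive precursor. Its levels were 33.5, 45 and 46.7 FPKM in the large clones, 11.7, 15.8 and 10.2 in the small clones and 17.2 to 22.4 in the 2N libraries. The 2N libraries lay between both classes without overlap, and IL18 rose from small to large clones by 1.66 ± 0.19 (limma adjusted p = 0.0226). Within the NF-kB target and chemokine list IL18 was the only one of 15 tested members past the threshold, and the list's median was 0.13 (0.036 without large clone 3).

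CPA4, a secreted carboxypeptidase, had 38.9, 20.6 and 25.8 FPKM in the large clones and 3.36, 8.01 and 5.42 in the small clones, with 4.42 to 4.95 in the 2N libraries (log2 difference 2.17 ± 0.28, limma adjusted p = 0.0352). C1orf116, an androgen-regulated gene, was at 4.99, 7.34 and 4.38 FPKM against 0.420, 1.68 and 0.680 (1.80 ± 0.25, limma adjusted p = 0.042). Outside the large clones only small clone 2 reached 1 FPKM for C1orf116. It thus passed the filter through the large clones, which partly fixed its direction. In CPA4 and C1orf116 large and small clones were well apart.

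SERINC2, a membrane protein of a family linked to serine incorporation into lipids, reached 68.8, 91.7 and 85.1 FPKM in the large clones. The small clones were close together at 34.3, 35.9 and 35.0 FPKM, and the 2N libraries lay lower, at 16.6 to 22.5. The large clones were higher than the small by 1.19 ± 0.16 (limma adjusted p = 0.0354). PIP4K2A, a kinase of phosphatidylinositol lipids, was 22.6, 29.1 and 31.1 FPKM in large and 10.5, 11.3 and 13.6 in small clones (log2 difference 1.16 ± 0.15, adjusted p = 0.0354). GREB1L, which acts in kidney and inner ear development, was low throughout, at 3.51, 3.72 and 3.47 FPKM against 0.892, 1.50 and 0.819 (1.16 ± 0.16, adjusted p = 0.0374). PIP4K2A and GREB1L each overlap another annotated gene on their own strand, and GALNT5, IL18 and GREB1L 1 or more on the opposite strand. Whether reads were counted by strand is not given in the sources used here.

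SBDSP1 is a pseudogene of SBDS, a factor that matures the large ribosomal subunit. It was 26.3, 26.9 and 29.6 FPKM in large clones and 13.2, 15.3 and 14.5 in small clones (0.90 ± 0.12, limma adjusted p = 0.0354). The parent gene SBDS, looked up after this value was seen, had 34.0, 33.7 and 38.9 FPKM in the large and 16.4, 26.7 and 20.3 in the small clones (0.75 ± 0.17, adjusted p = 0.142). Both genes stood higher in every large clone, and 3 of 1394 windows of 100 bases in SBDSP1 also occur in SBDS.

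The calls depended on single clones. Without large clones 1, 2 and 3 the number of genes past the threshold was 4, 565 and 23, and without small clones 1, 2 and 3 it was 2, 35 and 4. Of the 11 genes, 8 remained past the threshold without large clone 3, the clone that stood apart.

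**Figure D2:**
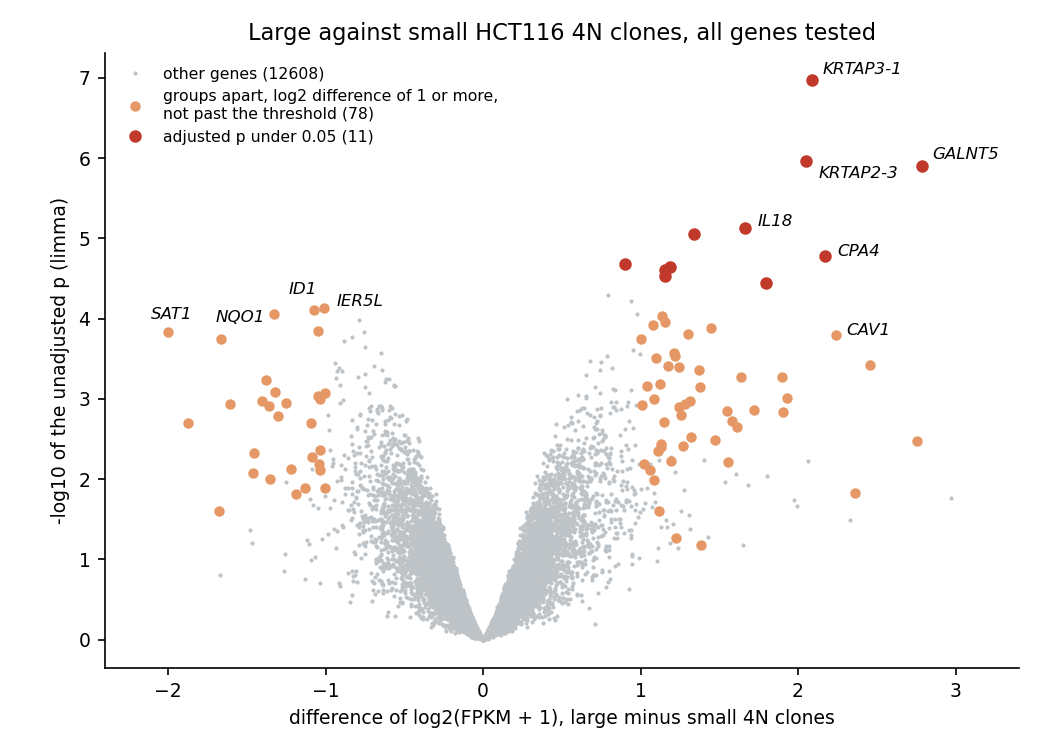
Difference of log2(FPKM + 1) between large and small HCT116 4N clones against the −log10 of the unadjusted limma p for all 12697 genes. Red points are the 11 genes past the adjusted threshold, all to the right of 0, and orange points are the other genes whose groups do not overlap and differ by a log2 of 1 or more.

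A larger set was defined by size and separation alone. The 3 large and 3 small clones did not overlap in 932 genes higher in large (7.34%) and 1007 lower (7.93%). With a log2 difference of 1 or more as well, 88 genes remained (0.693%), 58 higher (0.457%) and 30 lower (0.236%) in large clones. Of the 58, all 3 large clones lay above all 3 2N libraries in 44. In 35 of the 58 the large clones lay apart from the 2N libraries while the small clones overlapped them, and in 12 it was the small clones that lay apart. Of the 30 lower genes, 23 had the large clones alone apart from 2N and 2 the small clones alone. Over all tested genes the shares were 22.7% for the large clones alone and 11.5% for the small clones alone. These shares are not a like base. Genes picked for a gap between the classes almost always have 1 class apart from 2N. Neither class was apart in 2 of the 58 and 1 of the 30, against 7424 of all 12697 genes.

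The separated genes that missed the threshold included CTNNAL1, ANXA3, PDLIM1 and PROSER2, all higher in the large clones. CTNNAL1, a catenin-like protein, was 40.0, 49.6 and 59.6 FPKM in the large and 19.8, 22.9 and 25.7 in the small clones (log2 difference 1.08, limma adjusted p = 0.0718). ANXA3, a calcium-dependent membrane-binding annexin, had 37.4, 48.8 and 36.3 against 11.1, 11.7 and 22.0 FPKM (1.45, adjusted p = 0.0748), and PDLIM1, which links alpha-actinin to actin fibres, had 45.1, 46.0 and 35.3 against 16.0, 24.7 and 21.4 (1.00, adjusted p = 0.0762). PROSER2 stood at 20.7, 23.2 and 27.5 FPKM in the large clones and 6.20, 12.9 and 9.04 in the small clones (1.30, adjusted p = 0.075). In all 4 the lowest large clone exceeded the highest small clone, which the rule that selected them required.

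Genes that stood lower in the large clones included a detoxifying enzyme, an actin-binding adaptor and a transcription factor. NQO1, a quinone reductase under NRF2 control, was 56.4, 71.6 and 62.2 FPKM in the large and 196, 113 and 185 in the small clones (log2 difference -1.33, limma adjusted p = 0.0656), while the 25 tested NRF2 targets as a list had a median of -0.049. ENC1, which binds actin and ubiquitin ligases, was 2.60, 3.11 and 3.88 against 12.3, 7.81 and 18.5 FPKM (-1.66, adjusted p = 0.0762), and the forkhead factor FOXC1 was 9.87, 22.3 and 17.0 against 50.3, 32.8 and 44.9 (-1.38, adjusted p = 0.121). The 2N libraries, at 14.0 to 22.9 and 48.7 to 69.1 FPKM, lay above every large clone for both. The receptor gene EPHB6, the polarity gene PARD6A, CLDND1, TMEM200A, NPM2 and IER5L were separated the same way, with log2 differences from -1.87 to -1.01. Among noncoding genes, the nuclear long RNA NEAT1 was 3.14 to 8.05 FPKM in the large and 8.99 to 16.9 in the small clones (-1.30, limma adjusted p = 0.147). The long RNA AC110285.2 was 1.23 to 2.97 against 3.46 to 8.78 FPKM, and reads over the miRNA gene MIR4324 came to 0.388 to 2.04 against 3.27 to 4.33, from 1 read in its lowest clone. Higher in the large clones were RF00019, a small RNA gene, at 8.03 to 13.1 against 3.57 to 5.15 FPKM, and the intronic transcript AC131009.3 at 4.72 to 7.55 against 1.68 to 2.57.

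SAT1 acetylates spermidine and spermine, the step that starts polyamine breakdown and export. Its levels were 46.9, 102 and 35.6 FPKM in the large clones, 203, 199 and 283 in the small clones and 255 to 336 in the 2N libraries. Every large clone lay below every other HCT116 library, and the log2 difference was -2.0 ± 0.33 (limma adjusted p = 0.0748). Of the enzymes that make polyamines, ornithine decarboxylase, ODC1, was 143 to 238 FPKM in large and 121 to 168 in small clones (0.43, adjusted p = 0.338), overlapping, and SMS, spermine synthase, was 80.5 to 101 against 55.5 to 77.2 (0.39, adjusted p = 0.282), without overlap. The polyamine transporter gene ATP13A3 was 17.3 to 22.5 against 10.3 to 17.3 FPKM, with the nearest clones equal to 3 digits. None of the 20 tested genes of the list passed, with 10 higher and 10 lower.

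Gene lists for pathways and structures were described by counts and medians. Of 49 lists with at least 5 tested genes, 16 had a median log2 difference of 0.2 or more in size, and apart from GALNT5 and IL18 no member of any list passed the threshold. The counts given for a list are of direction, beside 49.3% of all genes higher in the large clones, and of groups without overlap.

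**Figure D3:**
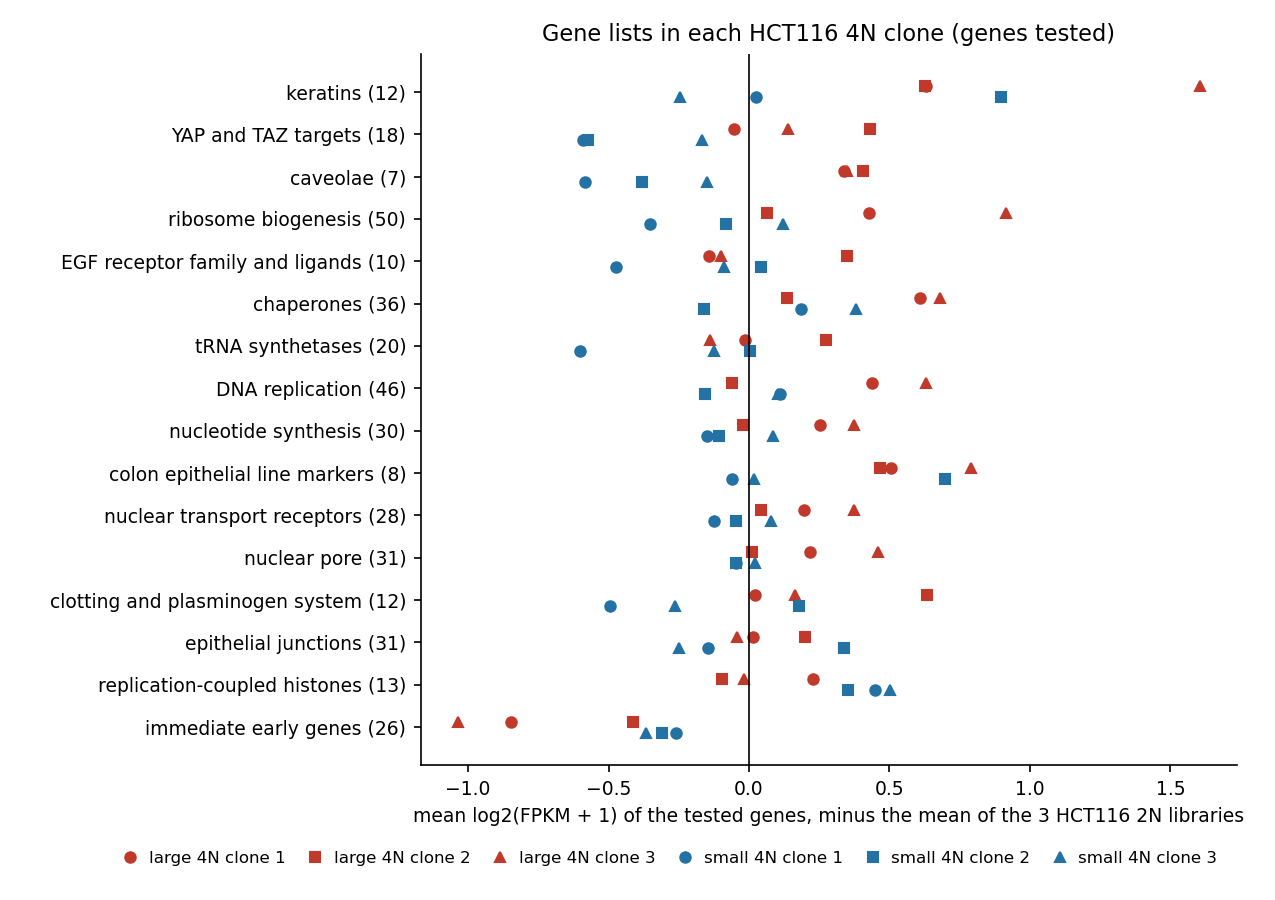
Level of the 16 gene lists with a median difference of 0.2 or more in size, as mean log2(FPKM + 1) of the tested genes minus the mean of the 3 2N libraries, with 1 point per 4N clone. Large clone 3 lies farthest right for keratins and ribosome biogenesis, and farthest left for immediate early genes, while the 3 large clones lie close together for caveolae.

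Of 7 tested caveolar genes, 6 were higher in the large clones, with a median of 0.60 (0.52 without large clone 3) and 3 members, all higher, without overlap, beside 7.34% of all genes. CAV1, the main coat protein, was 119, 122 and 185 FPKM in the large clones, 14.5, 33.7 and 47.5 in the small clones and 91.9 to 137 in the 2N libraries. The large clones lay within or above the 2N range and the small clones below it (log2 difference 2.24 ± 0.38, limma adjusted p = 0.075). CAV2, its partner, had the same order, with 29.6, 33.3 and 38.0 FPKM in the large, 5.21, 16.3 and 11.6 in the small and 22.4 to 32.4 in the 2N libraries (1.64, adjusted p = 0.118). EHD2, an ATPase at the neck of the pit, was 51.5, 63.3 and 52.4 FPKM against 35.0, 35.1 and 38.6 (0.60, adjusted p = 0.141). CAVIN1, which assembles the coat, overlapped at 54.0 to 107 and 37.5 to 56.6 FPKM. The mean log2 level of the 7 genes was 5.13, 5.20 and 5.14 in the large clones and 4.21, 4.41 and 4.64 in the small clones, and an exact test of 3 against 3 clones cannot give a p below 0.1.

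Targets of YAP and TAZ stood higher in 14 of 18 cases, with a median of 0.66 (0.55 without large clone 3), and 9 of the 18 did not overlap, all 9 higher, against 7.34% of all genes. F3, tissue factor, the cell surface trigger of clotting, was 22.1, 35.8 and 74.9 FPKM in the large and 3.11, 7.42 and 10.3 in the small clones (2.46, limma adjusted p = 0.109). The receptor kinase gene AXL was 28.3, 36.7 and 14.4 against 9.98, 9.46 and 10.2 FPKM (1.24, adjusted p = 0.142), and the 2N libraries, at 18.7 to 24.3, lay within the large range. The guanine exchange factor gene DOCK5, the membrane repair gene MYOF and CRIM1 were also without overlap, with log2 differences of 0.94, 0.78 and 0.83, while AJUBA overlapped (0.64). F3 is also in the clotting and plasminogen list, whose other leading members were ANXA2 at 156 to 218 FPKM in large and 90.7 to 151 in small clones, and its partner S100A10 at 93.2 to 171 and 55.3 to 96.7.

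Immediate early genes stood lower in 21 of 26 cases, with a median of -0.57 (-0.34 without large clone 3). Of the 26, 8 were lower without overlap (7.93% over all genes) and 2 were higher. FOS, an AP-1 subunit, was 19.1, 19.3 and 19.0 FPKM in the large clones, 85.8, 32.4 and 46.7 in the small clones and 110.5 to 171 in the 2N libraries (-1.36 ± 0.30, limma adjusted p = 0.142). The large clones were nearly equal and lowest, and the small clones lay below the 2N libraries too. EGR1, a zinc finger factor, had 78.7, 72.7 and 35.2 against 162, 137 and 146 FPKM (-1.32, adjusted p = 0.135). JUN was 8.5, 11.3 and 9.99 against 22.2, 18.6 and 19.0 (-0.94, adjusted p = 0.109), and JUNB 85.5, 84.4 and 69.8 against 163, 209.6 and 130.1 (-1.04, adjusted p = 0.142). The orphan receptor gene NR4A2 was 3.22 to 12.4 FPKM in large and 18.1 to 30.1 in small clones.

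One AP-1 subunit stood the other way. FOSL1 had 108, 118 and 117 FPKM in the large clones, 51.5, 60.6 and 61.0 in the small clones and 51.9 to 71.8 in the 2N libraries, with the large clones above all others (0.98 ± 0.15, limma adjusted p = 0.0656). KLF6, named after its value was seen as the other higher member without overlap, was 18.5 to 53.3 against 16.4 to 17.5 FPKM. The MAPK feedback list, whose products damp the pathway, had 16 of 22 genes lower and a median of -0.17. Its phosphatase gene DUSP6 varied widely within the small clones, at 53.8, 10.8 and 80.6 FPKM, against 9.49, 23.1 and 8.62 in the large clones, and the groups overlapped. SPRY2, an inhibitor of receptor signalling, overlapped at 2.00 to 2.42 against 2.39 to 3.4 FPKM. EPHA4, a receptor kinase, was the 1 member of the 22 without overlap, lower at 0.160 to 0.606 against 1.02 to 1.24 FPKM. EPHA4 entered the test through the small clones alone, since no other HCT116 library reached 1 FPKM, so the filter partly fixed its direction. Over all genes 7.93% were lower without overlap. Upstream, the ligand gene TGFA was 21.9, 31.5 and 26.1 FPKM in large and 14.3, 18.3 and 16.2 in small clones (0.66, limma adjusted p = 0.147), HBEGF was 5.35 to 12.6 against 2.90 to 4.38, and the receptor gene EGFR was 8.30 to 10.6 against 6.21 to 7.74, all 3 without overlap. Of the 10 tested genes of the EGF receptor family and its ligands, 6 were higher and 4 lower. Without overlap 3 were higher, beside 7.34% of all genes, and 0 lower.

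**Figure D4:**
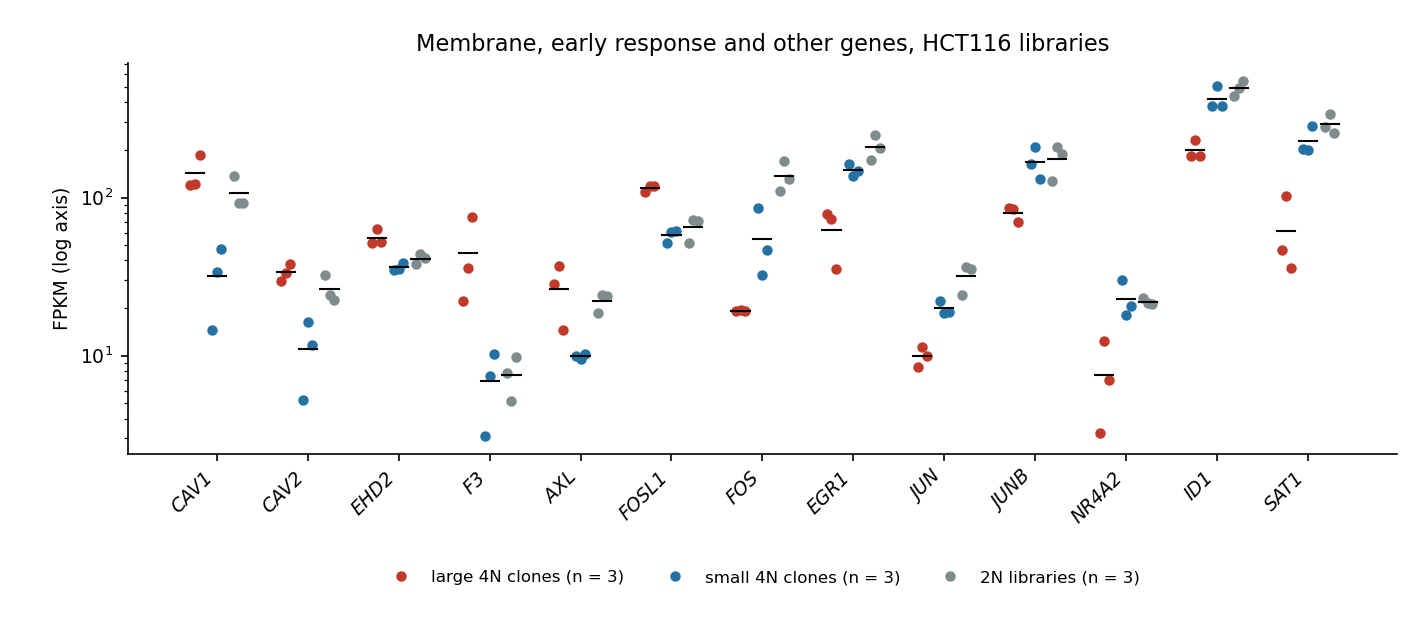
FPKM on a log axis of 13 genes named in the text, none past the threshold, in each HCT116 library, with bars at group means. CAV1 and CAV2 are low in the small clones alone, FOSL1 and F3 are high in the large clones, and FOS, EGR1, JUN, JUNB, NR4A2, ID1 and SAT1 are lowest in the large clones.

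Among other signalling genes, the BMP targets ID1 and ID3, inhibitors of helix-loop-helix factors, stood lower. ID1 was 182, 231 and 184 FPKM in the large and 379, 509.5 and 378 in the small clones (-1.07 ± 0.16, limma adjusted p = 0.0656), and ID3 was 22.5, 30.8 and 46.4 against 61.5, 75.5 and 52.6 (-0.95, adjusted p = 0.202). The 17 tested genes of TGF-beta and BMP responses had a median of -0.023, and of -0.23 without large clone 3. None of the 17 was higher without overlap (7.34% over all genes) and 3 were lower (7.93%). In the WNT list (16 tested, median -0.14), the nuclear partner of beta-catenin TCF7L2 was 13.4 to 19.1 FPKM in large and 25.7 to 32.8 in small clones, and the WNT secretion factor WLS was 6.35 to 10.0 against 12.3 to 14.5. Neither gene overlapped between the classes. Of the 16 WNT genes, 7 were higher and 9 lower. Without overlap 2 were higher (7.34% over all genes) and 3 lower (7.93%).

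Ribosome biogenesis factors stood higher in 49 of 50 cases, with a median of 0.58, which was 0.36 without large clone 3, and 17 of the 50 were higher without overlap, beside 7.34% of all genes. BOP1, a factor for the large subunit, was 140.2, 81.0 and 118 FPKM in the large and 42.3, 64.0 and 55.4 in the small clones (1.04 ± 0.21, limma adjusted p = 0.127), and the RNA polymerase I subunit gene POLR1E was 34.5, 24.1 and 46.7 against 15, 16.1 and 19.6 (0.97, adjusted p = 0.142). NOP56, DDX21, DDX18 and DDX56, of the nucleolus, had log2 differences of 0.72, 0.87, 0.78 and 0.57, all without overlap. Nucleophosmin, NPM1, was 368, 380.0 and 506 FPKM in large and 213, 129 and 357 in small clones. The mean log2 level of the 50 genes was 5.04, 4.67 and 5.52 in the large clones and 4.26, 4.53 and 4.73 in the small clones, so large clone 2 lay below small clone 3. The ribosomal proteins themselves had a median of 0.13 over 78 genes, 67 of them higher.

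Other lists of growth genes also stood mostly higher. The tRNA synthetases were higher in 18 of 20 cases (median 0.33), chaperones in 34 of 36 (0.37), nucleotide synthesis in 27 of 30 (0.30) and DNA replication in 43 of 46 (0.33). Without large clone 3 these medians were 0.36, 0.30, 0.18 and 0.20, and the mean levels of the 4 lists overlapped between the classes. The chaperonin genes CCT6A, CCT8 and CCT5 had log2 differences of 0.50, 0.52 and 0.55, and the heat shock cochaperone gene DNAJB1 was 64.3 to 85.5 FPKM against 36.7 to 55.0. Of the replication genes, RFC3, a clamp loader subunit, was 13.1 to 23.1 against 7.38 to 11.6 FPKM, primase PRIM1 8.56 to 12.8 against 7.92 to 8.02 and the origin licensing factor CDC6 16.6 to 45.3 against 14.6 to 16.1. Replication-coupled histones lay the other way, with 11 of 13 lower and a median of -0.40. HIST1H2AC was 1.70 to 3.4 FPKM in large and 4.23 to 5.01 in small clones, and HIST1H2AG, HIST1H4K and HIST1H3H were also lower without overlap (-0.70, -1.03 and -0.40). HIST1H2AG and HIST1H4K reached 1 FPKM in the small clones alone, so the filter partly fixed their direction, and both count among the 11. HIST1H3H reached it only in small clone 1 and 2N clones 1 and 2. Most transcripts of replication-coupled histone genes have no poly-A tail, and poly-A selection captures them poorly.

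MYC, which drives many of these growth genes, was 243, 202 and 261 FPKM in the large clones and 31.0, 183 and 172 in the small clones, with 128 to 188 in the 2N libraries. Small clone 1 was far below every other library, and the difference of 1.22 ± 0.56 did not pass (limma adjusted p = 0.318). Among mTOR and growth control genes (31 tested, median -0.016, and -0.043 without large clone 3), RPTOR, the scaffold of mTOR complex 1, was 16.0 to 17.5 FPKM against 11 to 13.9, and MXD3, of the family that competes with MYC for MAX, was 2.11 to 5.37 against 5.77 to 8.26.

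For the nucleus, 29 of 31 nuclear pore genes (median 0.25) and 24 of 28 transport receptor genes (0.27) stood higher in the large clones, and without large clone 3 the medians were 0.11 and 0.17. NUP155 was 15.9, 12.2 and 22.5 FPKM in the large and 9.35, 8.74 and 11.7 in the small clones (0.68, limma adjusted p = 0.211), and NUP93 was 10.8 to 16.6 against 8.98 to 10.6. The nuclear lamina and LINC complex genes had no common direction, with 11 higher, 10 lower and a median of 0.0058. Kinetochore and spindle checkpoint genes (20 of 38 higher, median 0.017), mitotic kinase, spindle and cytokinesis genes (18 of 38, -0.015) and cohesin and condensin genes (11 of 24, -0.016) had medians near 0 with all 6 clones. Without large clone 3 these 3 medians were 0.12, 0.13 and 0.072.

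In the cytoskeleton, the actin crosslinker gene ACTN4 was 202, 189 and 197 FPKM in the large and 148, 123 and 135 in the small clones (0.53, limma adjusted p = 0.142), and ACTB was 823 to 1275 against 512 to 865. The myosin II heavy chains, targets of the drug used to double the genome, stood in opposite directions: MYH9 was 110.5, 92.7 and 105 FPKM against 77.1, 75.4 and 83.6 (0.38, adjusted p = 0.218) and MYH14 was 13, 12.6 and 8.79 against 19.6, 19.3 and 14.5 (-0.60, adjusted p = 0.2). Neither pair of groups overlapped.

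Keratins were higher in 11 of 12 cases (median 0.76, and 0.43 without large clone 3). The pair of simple epithelia, KRT8 and KRT18, was highest in large clone 3: KRT8 was 543, 398 and 928 FPKM in large and 333, 363 and 314 in small clones, and KRT18 was 282, 242 and 614 against 157, 239 and 204. Keratins of hair and stratified epithelia were low. KRT6A entered the test through the large clones alone, since no other HCT116 library reached 1 FPKM, so the filter partly fixed its direction. The hair keratin gene KRT81 was 6.77, 3.45 and 2.70 FPKM against 0.0395, 1.95 and 0.168 (1.72, limma adjusted p = 0.142), KRT6A was 1.11, 1.17 and 3.48 against 0.0260, 0.155 and 0 (1.37, adjusted p = 0.109), and KRT15 was 6.79, 6.68 and 6.21 against 4.47, 4.74 and 1.54. Outside the large clones only small clone 2 reached 1 FPKM for KRT81, so the filter partly fixed the direction of KRT81 too. KRT80 overlapped, since small clone 2 had 7.05 FPKM and large clone 1 6.19. Small clone 2 was also the highest small clone for KRT81 and for the keratin list, whose mean log2 level was 3.75, 3.75 and 4.73 in the large and 3.15, 4.02 and 2.88 in the small clones.

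Targets of p53 had no common direction, with 13 higher and 20 lower of 33 and a median of -0.16, or 0.0014 without large clone 3. CDKN1A, the cell cycle inhibitor p21, was 172, 352 and 97.2 FPKM in the large, 177, 236 and 242 in the small and 74.9 to 135 in the 2N libraries, and MDM2 was 12.6, 18.1 and 12.2 against 12.9, 10.8 and 14.6. Both genes overlapped between the classes. The nuclease gene AEN (17.1 to 23.2 against 10.7 to 11.5 FPKM), the death receptor gene TNFRSF10A (18.6 to 24.9 against 8.82 to 16.8) and TRIAP1 (35.8 to 36.2 against 23.9 to 30.5) were higher without overlap, 3 of the 33, beside 7.34% of all genes. Lower without overlap were 2 of the 33, beside 7.93% of all genes: SERTAD1, at 12.8 to 22.7 FPKM against 24.6 to 27.4, and ZMAT3, at 3.70 to 4.32 against 4.39 to 6.08, both named after their values were seen. PIDDosome and tetraploidy checkpoint genes had a median of 0.051 over 27 genes (-0.0068 without large clone 3). Of metabolic genes, the oxygen sensor gene EGLN1 was 14.8 to 20.6 FPKM in large and 9.76 to 13.6 in small clones, and the aldolase gene ALDOC was 6.97 to 11.2 against 11.8 to 44.6, both without overlap. Of 33 tested glycolysis and hypoxia genes, 2 were higher without overlap (7.34% over all genes) and 6 lower (7.93%). The medians of glycolysis and hypoxia (-0.11), oxidative phosphorylation (0.11) and cholesterol and fatty acid synthesis (0.030) were -0.054, 0.10 and 0.0049 without large clone 3.

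Clones can gain or lose chromosomes, so each chromosome's median difference from the 2N libraries, less the clone's own median, was taken in each clone over genes averaging 5 FPKM or more. Of 138 pairs of clone and chromosome, 4 had a median of 0.2 or more in size. Chromosome 1 was at -0.299 in large clone 1, chromosome 5 at 0.28 in large clone 3, and chromosome 15 at -0.23 in small clone 2 and -0.448 in small clone 3. No shift was shared by the 3 clones of a class. Among the genes named here, SERINC2, C1orf116, F3, S100A10, JUN, ID3, EGLN1 and WLS lie on chromosome 1, NPM1, NUP155, CCT5, HBEGF, EGR1, MXD3 and ENC1 on chromosome 5, and AEN and ANXA2 on chromosome 15. The part of these shifts in the values of those genes was not tested.

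**Figure D5:**
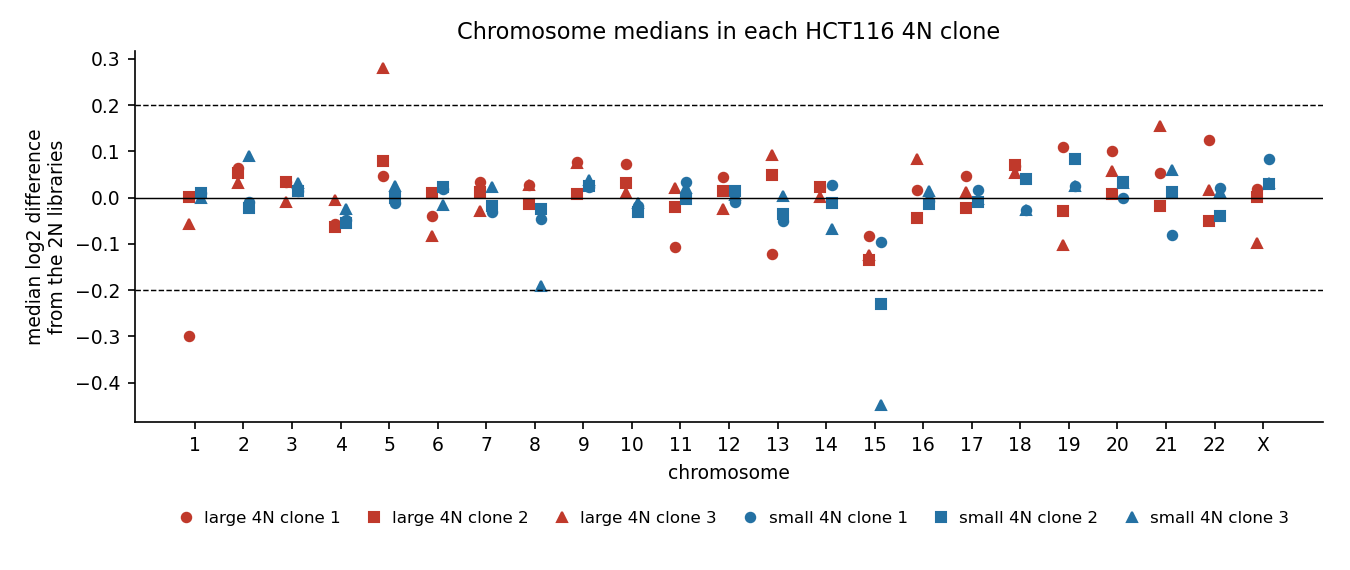
Median log2 difference from the 3 2N libraries of the genes of each chromosome in each 4N clone, less the clone's median over all genes. Dashed lines mark 0.2 in size, and 4 points lie beyond them, on chromosome 1, chromosome 5 and, for 2 small clones, chromosome 15.

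DLD1, the other colorectal line of the series, was doubled with a different drug, dihydrocytochalasin B, and has 4 large and 3 small 4N clones. Line and drug cannot be told apart in this comparison. The difference between large and small clones itself differed between HCT116 and DLD1 in 21 genes (limma interaction, adjusted p under 0.05, 0.165% of genes). SAT1 was among them, with log2 differences of -2.0 in HCT116 and 0.56 in DLD1. Of the 11 HCT116 genes, KRTAP2-4 passed this test (1.34 and 0.25). KRTAP3-1, with 2.09 in HCT116 and 1.52 in DLD1, did not, and its difference between lines was 0.57 ± 0.73 (SE). GALNT5 was 2.79 and 0.25 (limma, difference 2.54 ± 0.58, adjusted p = 0.0782), and CPA4 2.17 and 0.95 (1.22 ± 0.72, adjusted p = 0.512). NQO1 was -1.33 and -1.32 (difference -0.01 ± 0.56, adjusted p = 0.995). In CAL51, the remaining line, which has 1 small 4N clone, the log2 difference was 1.08 for NQO1 and 2.52 for SAT1. There it was 0.20 for CPA4, 0.0042 for GALNT5 and 0 for KRTAP3-1 and KRTAP2-4. The CAL51 differences were not tested.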

How the data were processed

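Libraries were made from poly-A RNA and kept strand, per the labels' protocols. The submitters' processing notes name fastp, HISAT2 2.0.5, featureCounts 1.5.0-p3, DESeq2 and the build GRCh38. The deposited FPKM values of the authors were used unchanged. Every value was a whole number of reads (100% within 0.01 reads), which gave each library's depth. The 12697 genes kept had at least 1 FPKM in no fewer than 3 HCT116 libraries. Their log2(FPKM + 1) was fitted with limma 3.58.1 in R 4.3.3 with 3 means (2N, small 4N, large 4N), an intensity trend and moderated variances (6 residual and 3.67 prior degrees of freedom). Tests were two-sided, adjusted by Benjamini-Hochberg over all 12697 genes, with a threshold of 0.05. The difference from DLD1 was fitted over 26 libraries. Replicates are clones, apart from the parental culture. The variance was pooled over the 2N, small and large libraries, so p values do not measure the spread between 4N clones alone. Pairs of 2N libraries were closer (SD of the log2 difference 0.2 to 0.276) than pairs of large (0.411 to 0.622) or small clones (0.386 to 0.476). The p values may thus understate the spread between 4N clones, and with only the 6 4N clones 2 genes passed.

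Members and lists were chosen with earlier results of these data known. Named are protein-coding genes, averaging 1 FPKM over the 4N clones, that passed, filled to 15 in each direction in order of p with genes that do not overlap and differ by a log2 of 1. Named too are up to 6 members of a list in order of p, members that define a role, and up to 3 noncoding genes in each direction. In a simulation of these 12697 genes, the fit called 58 of 100 genes changed by a log2 of 1, 93 of 100 changed by 2, and 9 of 12497 unchanged. The simulated noise was independent between genes and had the same SD in every library, unlike the real clones. These counts check the fit and do not give the power or false calls of the real comparison. Alternatives changed the pseudocount, filter, scaling, libraries fitted or variance model, or left out each clone. Promoters are from RefSeq (GRCh38.p14), and gene positions from the deposited table match GENCODE 29 for the 11 genes. Python 3.11.15, numpy 2.4.6, pandas 2.3.3 and matplotlib 3.10.9 were used.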

Additional observations from a re-analysis of the deposited data

Results flagged for a closer look

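For 5 genes named above, the difference between large and small clones differed between HCT116 and DLD1 by the interaction test (limma, adjusted over 12697 genes). Differences are HCT116 minus DLD1 on the log2 scale with their SE. SAT1 had -2.56 ± 0.41 (adjusted p = 0.00793): it was lower in all 3 large HCT116 clones, while the DLD1 difference was 0.56. EPHB6 had -2.07 ± 0.42 (adjusted p = 0.0424), with -1.05 in HCT116 and 1.02 in DLD1. CTNNAL1 had 1.21 ± 0.24 (adjusted p = 0.0419), with 1.08 and -0.13. KRT6A had 1.27 ± 0.24 (adjusted p = 0.0419), with 1.37 and 0.10. KRTAP2-4 had 1.09 ± 0.22 (adjusted p = 0.0424), with 1.34 and 0.25. Each of the 5 was higher, or for SAT1 and EPHB6 lower, in 3 of 3 large HCT116 clones than in every small one. That adds no support, since genes were named for their difference between these same HCT116 clones. Such a choice can also enlarge the difference from DLD1. KRTAP2-4 and KRT6A reached 1 FPKM in no HCT116 library but the large clones, so the filter partly fixed their direction.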

How the results depend on the processing

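The count of 11 genes, all higher in large clones, was 8 with a pseudocount of 0.1, 12 with 5, 13 with median-ratio scaling, 12 without the intensity trend, 11 with robust variances and 11 with limma voom on recovered reads. It was 9 (7 higher, 2 lower) without the filter, 7 at a mean FPKM of 5 or more, 2 with only the 6 4N clones and 6 with the parental library as a mean of its own. Over all 26 libraries it was 278 (165 higher, 113 lower), 10 of the 11 among them. With 1 clone left out it ran from 2 to 565 (2 to 316 higher, 0 to 249 lower), the extremes being without small clone 1 and large clone 2; where a class keeps 2 clones, they are assumed to vary like the others.

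The clones share only replicate numbers: deviations of same-numbered clones had r of 0.0181, 0.166 and 0.154, not all over 0.1, and large clone 1 correlated best with small clone 3 (0.0215). A replicate block gave 0 calls (1411 at an unadjusted p under 0.05).

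Genes apart by a log2 of 1 numbered 209 and 33 with pseudocounts of 0.1 and 5, 56 at a mean FPKM of 5 or more, and 97 to 288 with 1 clone left out (288 without large clone 2, 169 and 185 without small clones 2 and 3). Lists with a median of 0.2 or more in size numbered 10 without the filter and 14 to 22 with 1 clone left out. For the gene CDKN1A the log2 difference ran from -0.74 to 0.19 with 1 clone left out, reversed without large clone 3, and for the gene MDM2 from -0.0340 to 0.232, reversed without large clone 2. The cause was not tested. Genes that differed from DLD1 numbered 11 with a pseudocount of 0.1, 6 with only the 13 4N clones of both lines, and 6 to 368 with 1 clone left out. The counts were 368 without HCT116 large clone 2, 8, 41 and 32 without HCT116 small clones 1, 2 and 3, 10, 8, 10 and 7 without DLD1 large clones 1 to 4, and 13 and 6 without DLD1 small clones 2 and 3. Depth limits low genes, with 3 reads for KRTAP3-1 in its lowest 4N clone.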
